A study of Mus musculus with 26 samples.

Results

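The comparison described here sets old against young mouse osteoblasts that carry the same Kdm2b deletion. Its members were chosen by label, as the libraries titled CKO-OLD and CKO-YOUNG, 3 of each, which make 6 of the 18 RNA libraries and 6 of the 26 samples of the series. All were cultures labelled as femoral osteoblasts, grown in DMEM with fetal bovine serum. Both groups carried Kdm2b fl/fl alleles on a C57BL/6J background with Ocn-cre, a Cre recombinase expressed from the osteocalcin promoter and so active late in the osteoblast lineage, and the Ai14 reporter, which marks cells in which Cre has acted. The deletion removes the CxxC domain of Kdm2b and is carried by the young group as well as the old, so the contrast is one of age alone by its labels. The labels give ages of 3 months for YOUNG and 18 months for OLD, the wild-type C57BL/6J groups used beside the knockout, and call the knockout groups only YOUNG and OLD. CON-YOUNG, also 3 libraries, was the young control with Ocn-cre and Ai14 and without the floxed alleles. CON-OLD-iBP, again 3 libraries, is labelled as an old control with iBP. It was part of the statistical fit and is not described here. The labels leave it unsaid whether replicates are different animals, so a p-value here reflects the spread among the libraries alone, which may be technical.

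Osteoblasts build bone by secreting a matrix of type I collagen and then mineralising it, and they mature from proliferating, collagen-rich cells to cells that make osteocalcin and osteopontin and finally to osteocytes. KDM2B binds unmethylated CpG islands through its CxxC domain and brings the Polycomb complex PRC1.1 to them, where the complex places ubiquitin on histone H2A. With age, bone-forming cells are known to lose matrix output and to gain inflammatory and stress signalling.

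Before any gene is described, 3 properties of the libraries bear on every value. Malat1, a long RNA that stays in the nucleus, made up 0.176% to 0.182% of all counts in CKO-OLD, but 0.0435%, 0.0369% and 0.0957% in CKO-YOUNG 1, 2 and 3. Libraries over 0.05% are called set 3 below, so CKO-OLD lay wholly in set 3 and only CKO-YOUNG 3 of the young group lay there with it. CKO-YOUNG 3 also stood apart from its group, with the female transcript Xist at 372 CPM (read counts scaled to library size) beside 21.3 CPM of Ddx3y, a gene on the Y chromosome. The other 5 knockout libraries had at most 0.28 CPM of Xist and 66.1 to 91.8 CPM of Ddx3y. In rank correlation across genes, CKO-YOUNG 1 and 2 reached 0.991 with each other and 0.95 and 0.943 with CKO-YOUNG 3, against 0.971 to 0.978 among CKO-OLD and 0.916 to 0.951 between the ages. Total counts were 46272076 to 53254420 in CKO-OLD and 60558460 to 64646968 in CKO-YOUNG. Age and library set cannot be told apart in CKO-YOUNG 1 and 2, and comparisons within set 3 rest on the single library CKO-YOUNG 3.

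Of 16566 genes tested, 116 (0.700%) differed between old and young knockout osteoblasts by edgeR's quasi-likelihood test at an adjusted p under 0.05. Higher levels in old cells were called for 56 genes (0.338%) and lower levels for 60 (0.362%). The called set covered markers of late osteoblasts (Bglap and Spp1, higher), orphan nuclear receptors of the immediate early class (Nr4a1 and Nr4a2, higher), the cytokine Il6 (higher), and genes of amino acid supply and the ATF4 stress response (Slc7a5, Trib3, Cth, Shmt2, Asns and Chac1, lower). The old and young libraries did not overlap for any of the 116, which adds no support, since the test on these same libraries chose them. Of all genes tested 31.5% did not overlap (16.3% with old higher and 15.2% with old lower). The fitted change exceeded 2-fold for 53 of the higher and 43 of the lower genes. In the 6 fits that each left out 1 knockout library, the 116 kept their direction with an unadjusted p under 0.05, but the adjusted count was 0 without any 1 of CKO-OLD 1, 2 or 3 or CKO-YOUNG 1 or 2 (2441 to 3637 genes at an unadjusted p under 0.05) and 2655 (15.7%) without CKO-YOUNG 3, of which 1299 (7.66%) were higher and 1356 (8.00%) lower. Within set 3, 892 genes (5.38%) were called, 448 higher (2.70%) and 444 lower (2.68%), and 88 of the 116 were among them. That fit sets 3 old libraries against the single library CKO-YOUNG 3, takes the spread from other groups, and shares its 4 libraries with the comparison that chose the 116, so it is no independent support. With a term for library set 5 genes (0.0302%) were called higher and 1 (0.00604%) lower, 6 in all (0.0362%), among them Nr4a2, Vit and Trib3 of the 116.

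The young control line shows how far these genes also vary at a single age. CON-YOUNG 1 and 2 are low in Malat1 and CON-YOUNG 3 lies in set 3, and none of them carries the floxed alleles. For 111 of the 116 called genes (95.7%), CON-YOUNG 3 lay beyond both CON-YOUNG 1 and CON-YOUNG 2 on the side of the old knockout. The same held for 4436 of the 5218 genes (85.0%) whose knockout groups did not overlap. CON-YOUNG 3 is a single library and may differ from CON-YOUNG 1 and 2 in more than library set. In the knockout, library set and age largely coincide by Malat1 share, and the part of library set in each result below was not tested.

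**Figure D1:**
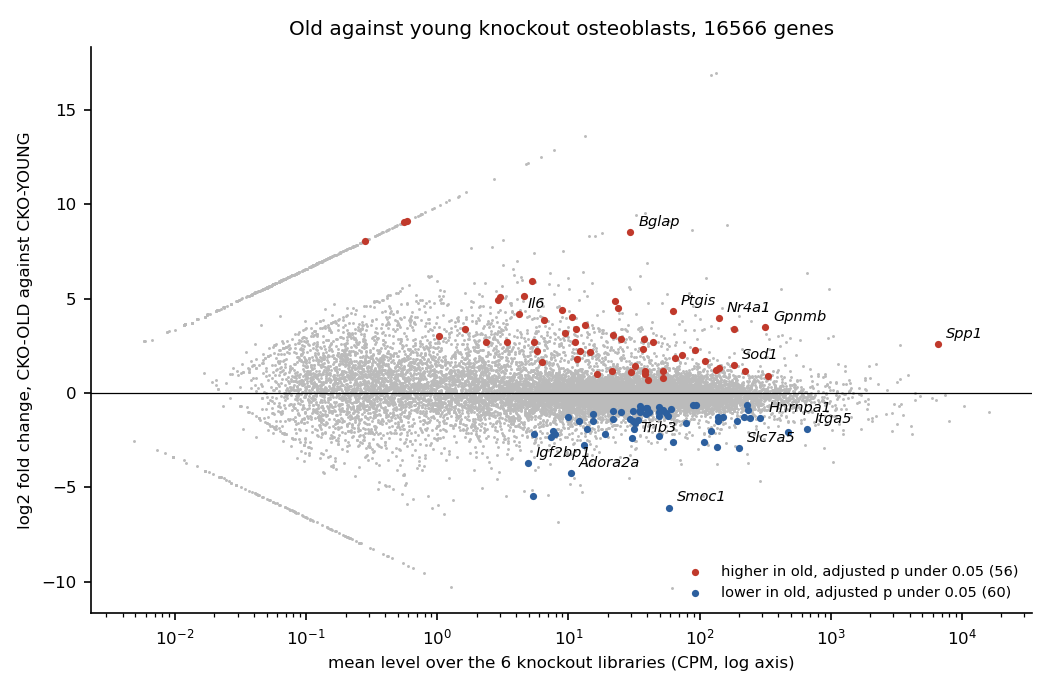
Each point is 1 of 16566 genes, with the mean level over the 6 knockout libraries (CPM, log axis) against the log2 fold change of CKO-OLD over CKO-YOUNG. Called genes, 56 higher (red) and 60 lower (blue), spread from a log2 fold change of 9.13 to -6.06 and lie at all but the lowest mean levels.

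The osteoblast label was first read from defining genes. Runx2, the lineage's master regulator, stood at 53.6, 84.6 and 90.8 CPM in CKO-OLD 1, 2 and 3 and at 91.6, 85.1 and 52.6 CPM in CKO-YOUNG 1, 2 and 3. Sp7 (osterix), the factor that acts after Runx2, was at 119 to 146 CPM in old and 66.1 to 161 CPM in young libraries. Both factors were present in all 6 libraries, and neither was called. Col1a1, the main chain of bone collagen, was at 11986, 13548 and 7138 CPM in old against 25118, 22827 and 16479 CPM in young cells. The groups of Col1a1 did not overlap, yet its log2 fold change of -0.98 did not pass the test (edgeR adjusted p = 0.147).

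Of the 10 defining osteoblast markers 2 were called higher, Bglap and Spp1, and none lower. Ibsp, another of the 10, was at 123, 48.7 and 38.1 CPM in old and 14.3, 5.93 and 75.1 CPM in young libraries, with overlap (edgeR adjusted p = 0.581). Alpl, Col1a2, Sparc and Pth1r were not called, with log2 fold changes of -0.56, -0.69, -0.25 and -0.10. Bglap, which encodes osteocalcin, a protein of mature osteoblasts, was at 83.6, 43.2 and 49.5 CPM in the old knockout and at 0.152, 0 and 0.306 CPM in the young one. All 3 young knockout libraries were close to 0, while wild-type YOUNG cells held 45.4 to 73.7 CPM and OLD cells 25.2 to 39.5 CPM. The log2 fold change of Bglap was 8.53 ± 1.66 (SE; edgeR adjusted p = 0.0389). Its near-identical neighbour Bglap2 was at 110, 60.9 and 65.1 CPM in old and at 0, 0 and 1.97 CPM in young knockout cells (adjusted p = 0.0706), and the counts may have been split between the pair. In the young control line Bglap was at 0.15, 0 and 9.89 CPM in CON-YOUNG 1, 2 and 3, so 2 libraries without the deletion were also near 0. Osteocalcin's own promoter drives the Cre in both lines.

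Spp1, or osteopontin, a phosphorylated matrix protein that binds mineral and integrins, was at 11959, 11526 and 10345 CPM in CKO-OLD and at 2351, 1848 and 1487 CPM in CKO-YOUNG. Each old library was above each young one, with a log2 fold change of 2.57 ± 0.42 (SE; edgeR adjusted p = 0.0253) that was 2.92 within set 3. In contrast Smpd3, the neutral sphingomyelinase needed for normal bone mineralisation, was at 14.2, 18.6 and 20.2 CPM in old and 116, 134 and 71.4 CPM in young cells. It fell with no overlap (log2 fold change -2.60 ± 0.52, adjusted p = 0.0392). Of 33 tested genes of osteoblast matrix and differentiation, Bglap and Spp1 rose and Smpd3 fell, 18 values were positive and the median was 0.12, against -0.00 over all genes tested.

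Of 15 tested mineralisation and phosphate genes Spp1 was called higher and Smpd3 lower, where 0.338% and 0.362% of all genes were, and the median was -0.09. Among 13 osteocyte genes none was called, though 11 were positive with a median log2 fold change of 1.91. Summed over the osteocyte list the level did not follow the median, at 1213 to 1498 CPM in old and 2950, 2855 and 1042 CPM in young libraries. Capg, an actin-capping protein, was at 406, 330 and 322 CPM in old against 61.4, 59.5 and 87.4 CPM in young libraries (edgeR adjusted p = 0.0529). Ackr3, a scavenging receptor for CXCL12, was at 34.8, 25.4 and 37.9 CPM against 3.4, 2.76 and 4.73 CPM (adjusted p = 0.0556). These pairs of groups did not overlap and missed the threshold narrowly. Phospho1, the phosphatase that starts mineral formation in matrix vesicles, was at 68, 44.9 and 78.1 CPM against 18.9, 17.4 and 26.3 CPM (adjusted p = 0.0719).

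The 12 largest increases by the naming rule were Bglap, Plxdc1, Vat1l, Rgs8, Adgrf4, Ccdc3, Pde7b, Vit, Ptgis, Il6, Cadm1 and Nr4a1. Ptgis, the enzyme that makes prostacyclin, was at 149, 91.5 and 117 CPM in the old libraries and at 7.02, 5.9 and 4.62 CPM in the young ones. CKO-YOUNG 3 was the lowest library, and the change was 4.35 ± 0.70 on the log2 scale overall (SE; edgeR adjusted p = 0.0253) and 4.69 within set 3. In the young control line Ptgis was at 17.3, 9.5 and 92.8 CPM in CON-YOUNG 1, 2 and 3. The set 3 library of that line thus lay within the range of the old knockout. Vit (vitrin), a secreted matrix protein, was at 13.5, 19.9 and 17.5 CPM in old and 0.406, 0.583 and 1.46 CPM in young cells. Its log2 fold change was 4.37 ± 0.63 (adjusted p = 0.0253), and it was 1 of the 3 genes of the 116 also called with a term for library set.

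Of the rest, Ccdc3, a secreted factor, was at 37.3 to 47.2 CPM in old and 1.05 to 2.04 CPM in young libraries. Pde7b, a phosphodiesterase that degrades cyclic AMP, was at 33.7 to 53.8 CPM against 0.954 to 3.34 CPM. Cadm1, an adhesion molecule of the immunoglobulin family, was at 16.9 to 26.3 CPM against 0.954 to 1.54 CPM. Plxdc1, Vat1l, Rgs8 (a regulator of G-protein signalling) and Adgrf4 (an adhesion G-protein-coupled receptor) were near 0 in young cells and reached 3.43 to 20 CPM in old ones. Within set 3 the log2 fold changes of the 12 ran from 3.54 for Vit to 7.57 for Bglap. Their positive sign there was fixed by the naming rule, which took only genes whose groups did not overlap.

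Among the 12 largest decreases were Smoc1, Slc38a4, Adora2a, Igf2bp1, Slc7a5, Tgfb2, Spon1, Smpd3, Trib3, Cth and Bok. Smoc1, a secreted calcium-binding protein that modulates BMP signalling, was at 1.59, 0.858 and 2.7 CPM in old and at 135, 189 and 19.6 CPM in young knockout cells. CKO-YOUNG 3 lay between the other young libraries and the old ones, and the log2 fold change was -6.06 ± 1.21 (SE; edgeR adjusted p = 0.0392) overall and -3.51 within set 3. Adora2a, a receptor for adenosine, had the same shape, at 0.885, 0.928 and 1.34 CPM in old and 26.2, 29.6 and 3.78 CPM in young cells (log2 fold change -4.24, and -1.84 within set 3). In the young control line, Smoc1 was at 161, 298 and 8.18 CPM and Adora2a at 16.7, 17.4 and 1.45 CPM in CON-YOUNG 1, 2 and 3.

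Igf2bp1, an RNA-binding protein of fetal growth that binds the Igf2 transcript, was at 0.905, 0.788 and 0.393 CPM in CKO-OLD and 10.2, 10.5 and 6.52 CPM in CKO-YOUNG. Here the 3 young libraries lay close together, and the log2 fold change of -3.70 ± 0.64 (SE; edgeR adjusted p = 0.0318) was -3.23 within set 3. It was also the 1 called gene for which CON-YOUNG 3, at 3.86 CPM, lay away from the old knockout side of CON-YOUNG 1 and 2 (1.04 and 1.1 CPM). Slc38a4, an imprinted amino acid transporter, was at 0.121, 0.473 and 0.107 CPM against 13.1, 12.1 and 6.19 CPM. Bok, a pro-apoptotic member of the BCL-2 family, was at 18.1, 15.7 and 15.6 CPM against 91.2, 90.2 and 62.6 CPM. The groups of both were well apart, with log2 fold changes of -5.46 and -2.30. Spon1 (F-spondin, a matrix protein) was at 2.54 to 4.29 CPM against 10.7 to 31.1 CPM.

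**Figure D2:**
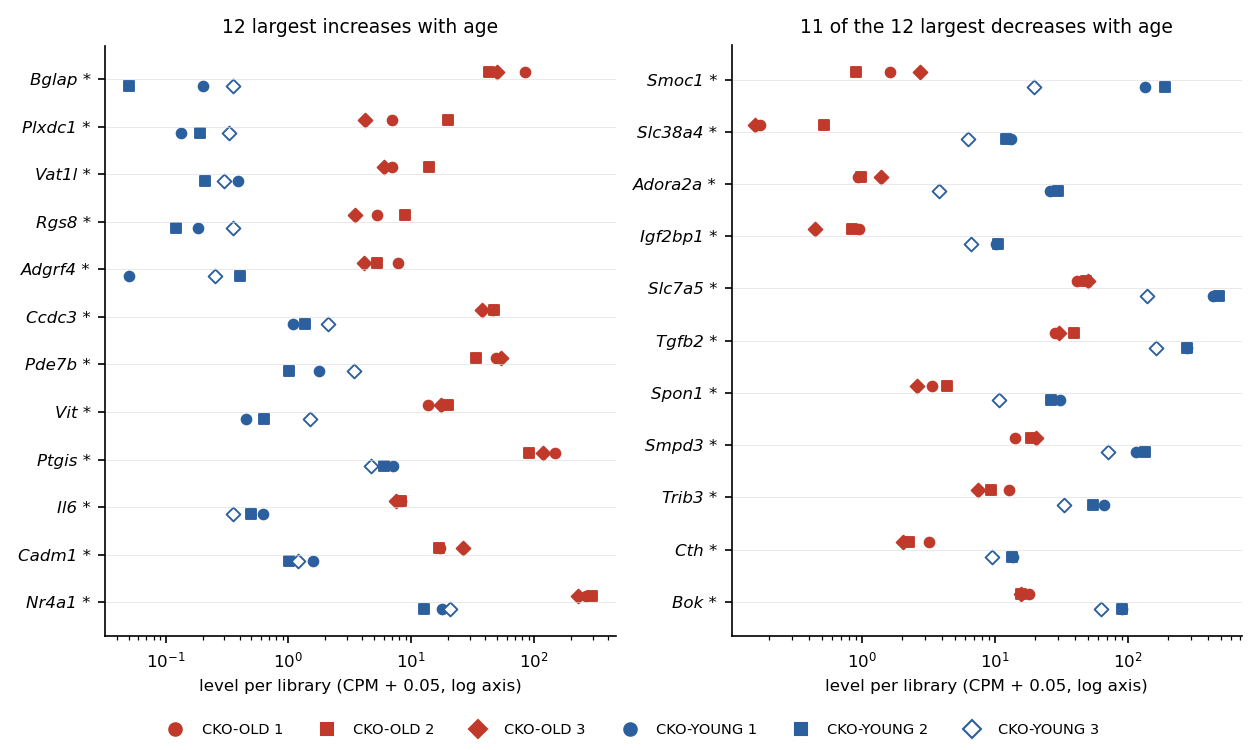
Level of the 12 largest increases and of 11 of the 12 largest decreases in each knockout library (CPM + 0.05, log axis), old in red and young in blue, with CKO-YOUNG 3 as an open diamond and an asterisk at called genes. No old library overlaps a young one, as the naming rule required. For each of the 11 decreases drawn, as for Smoc1 at 19.6 CPM, CKO-YOUNG 3 is the young library nearest to the old.

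The ATF4 list gave the most calls of any list. ATF4 is the transcription factor made when amino acids run short or protein folding fails, and its targets import and synthesise amino acids, feed one-carbon metabolism and limit the response. Of 25 tested members 6 fell, none rose, 22 values were negative, and the median log2 fold change was -1.20, against -0.00 over all genes. The old and young libraries did not overlap for 17 of the members that were lower and 1 that was higher, where 15.2% and 16.3% of all genes were apart in these directions. Without CKO-YOUNG 3 the median was -1.51, with 15 members called lower (8.00% of all genes) and 1 higher (7.66%). Within set 3 the median was -0.58.

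Slc7a5, the large neutral amino acid transporter LAT1, was at 41.4, 48.8 and 50.4 CPM in old and 436, 484 and 140 CPM in young knockout cells. The old libraries were nearly equal, the young ones were all higher, and the log2 fold change was -2.91 ± 0.54 (SE; edgeR adjusted p = 0.036). Trib3, a pseudokinase that ATF4 induces and that in turn restrains ATF4, was at 12.7, 9.33 and 7.45 CPM against 66.8, 54.3 and 32.9 CPM (log2 fold change -2.38 ± 0.38, adjusted p = 0.0253). Its log2 fold change was -1.74 against CKO-YOUNG 3 alone, and with a term for library set it was called at -1.68 (adjusted p = 0.0438).

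Among biosynthetic members, Cth, which makes cysteine from cystathionine, was at 3.14, 2.22 and 2 CPM in old and 13.7, 13.5 and 9.47 CPM in young cells. Shmt2, the mitochondrial serine hydroxymethyltransferase, was at 104, 97.4 and 102 CPM against 353, 350 and 151 CPM. Asns, asparagine synthetase, was at 74.9, 69.1 and 77.7 CPM against 255, 245 and 110 CPM. In Shmt2 and Asns, CKO-YOUNG 3 stood much nearer to the old libraries than the other young ones did. Chac1, which breaks down glutathione, was at 14.5, 14.7 and 20.6 CPM against 53.8, 44.7 and 28.8 CPM. The log2 fold changes of Cth, Shmt2, Asns and Chac1 were -2.32, -1.49, -1.46 and -1.35, with edgeR adjusted p from 0.0389 to 0.0463.

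The transcript of Atf4 itself was not called, at 263, 173 and 221 CPM in old and 289, 287 and 242 CPM in young cells, and the groups overlapped. Ddit3 (CHOP), a pro-apoptotic partner of ATF4, was at 25.6, 12.3 and 21 CPM against 26.3, 15.9 and 55.2 CPM. Cebpb, a transcription factor also listed with ATF4, was the member with non-overlapping higher values in old cells, at 183, 146 and 149 CPM against 96.9, 89.2 and 56.5 CPM (adjusted p = 0.0587). The summed level of the list was 1540 to 1816 CPM in CKO-OLD, 4016, 3901 and 2206 CPM in CKO-YOUNG 1, 2 and 3, and 3931, 4332 and 2347 CPM in CON-YOUNG 1, 2 and 3. In both young groups the library of set 3 was thus the lowest.

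The promoters of 2 called members are shown because they hold the C/EBP-ATF response element that ATF4 is known to bind, searched as TGATGNAA on both strands of the 250 bases before the gene's start. The sequences are RefSeq's on GRCm38.p6, given 5′ to 3′ on the gene's strand, with the match in capitals. Asns lies on chr6:7693210-7693459 (minus strand) and Chac1 on chr2:119350992-119351241 (plus strand). 
Asns: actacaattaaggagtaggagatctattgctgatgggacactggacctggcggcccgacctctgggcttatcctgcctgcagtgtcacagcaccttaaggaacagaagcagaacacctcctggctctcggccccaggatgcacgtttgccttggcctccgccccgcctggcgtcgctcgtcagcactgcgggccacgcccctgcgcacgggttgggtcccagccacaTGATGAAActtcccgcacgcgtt
Chac1: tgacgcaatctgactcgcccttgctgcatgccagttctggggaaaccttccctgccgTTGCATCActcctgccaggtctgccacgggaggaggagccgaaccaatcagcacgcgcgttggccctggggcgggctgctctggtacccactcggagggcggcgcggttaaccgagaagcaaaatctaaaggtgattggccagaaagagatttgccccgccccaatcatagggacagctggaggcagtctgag
The match in Asns runs from base 23 to base 16 before the start, and that in Chac1, on the reverse strand, from base 193 to base 186. A match was found in 7 of the 21 list members with a promoter in the table, in 327 of 12918 tested genes with one (2.53%) and in 1134 of all 32851 promoters (3.45%). Of the 4 called members with a promoter, Shmt2 and Trib3 had none in this window. A match is a description of the letters and not evidence of binding.

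Most values of the immediate early list had the opposite sign. These genes encode transcription factors and feedback regulators that are induced within minutes by serum, growth factors, mechanical load or parathyroid hormone, without new protein synthesis. Of 27 tested members Nr4a1 and Nr4a2 rose, none fell, 23 values were positive, and the median log2 fold change was 1.50. For 20 members every old library lay above every young one (16.3% of all genes), and for 1 below (15.2%). The median of the list was 1.78 without CKO-YOUNG 3, with 14 called higher (7.66% of all genes) and 1 lower (8.00%). It was 1.54 within set 3 and fell to 0.92 with a term for library set (1 higher, none lower).

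Nr4a1 (NUR77), an orphan nuclear receptor induced by cyclic AMP, was at 263, 298 and 228 CPM in old and 17.6, 12.6 and 20.7 CPM in young knockout cells. The 3 young libraries agreed closely, and the log2 fold change was 3.95 ± 0.64 (SE; edgeR adjusted p = 0.0253) and 3.67 within set 3. Nr4a2 (NURR1), its relative, known to be induced by parathyroid hormone in osteoblasts, was at 37.9, 51.1 and 44 CPM against 5.92, 4.56 and 7.69 CPM. Its change of 2.87 ± 0.41 (adjusted p = 0.0253) also passed with a term for library set (2.19, adjusted p = 0.0336). In CON-YOUNG 1, 2 and 3, Nr4a1 was at 14.9, 9.56 and 82.7 CPM and Nr4a2 at 8.35, 5.92 and 19.6 CPM, so the set 3 library of the young control was raised too, but below the old knockout.

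Other members were high in old cells without passing the test. Fos, a subunit of the AP-1 factor, was at 570, 540 and 621 CPM in CKO-OLD and at 29.1, 19.3 and 150 CPM in CKO-YOUNG (edgeR adjusted p = 0.104). Egr1 was at 484, 553 and 650 CPM against 75.5, 64 and 197 CPM (adjusted p = 0.0626), and Ier2 at 224, 173 and 235 CPM against 72, 73.2 and 77.8 CPM (adjusted p = 0.0556). Each of these had no overlap between ages. Dusp1, a phosphatase that switches off MAP kinases, was at 633 to 754 CPM against 171 to 235 CPM. In CON-YOUNG 1, 2 and 3, Fos was at 32.5, 15.3 and 401 CPM and Egr1 at 140, 72.8 and 504 CPM. Dusp1 was at 128, 147 and 565 CPM there. In CON-YOUNG 3, Egr1 thus lay within the range of the old knockout, and Fos and Dusp1 below it. Fosl2 and Klf6 differed by less than their spread, with log2 fold changes of 0.17 and 0.19, and the 4 negative members were Ier5, Fosl1, Myc and Jund. Summed over the list the level was 5163 to 5629 CPM in old and 1998 to 2625 CPM in young knockout cells, and 1943, 1976 and 4436 CPM in CON-YOUNG 1, 2 and 3.

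**Figure D3:**
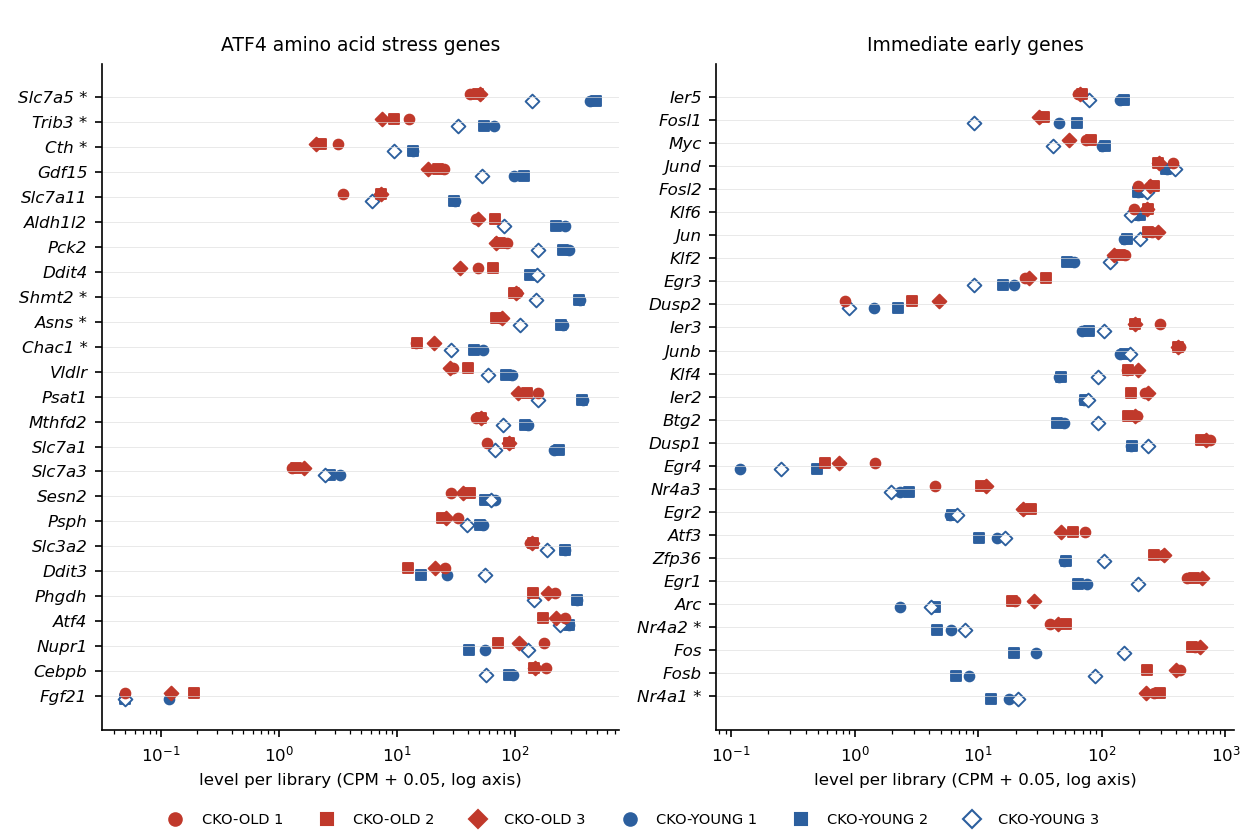
Level in each knockout library (CPM + 0.05, log axis) of the 25 tested ATF4 genes and the 27 tested immediate early genes, ordered by log2 fold change, with an asterisk at called genes. Old libraries (red) lie left of young ones (blue) for 22 ATF4 genes by fold change and right of them for 23 immediate early genes, and CKO-YOUNG 3 (open diamond) is often between.

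Inflammatory genes gave 1 call. Il6, a cytokine that osteoblasts release to promote osteoclast formation and a known secretory product of senescent cells, was at 8.16, 8.13 and 7.5 CPM in old and 0.575, 0.442 and 0.306 CPM in young knockout cells. The young libraries, CKO-YOUNG 3 included, were all under 1 CPM, and the log2 fold change was 4.16 ± 0.56 (SE; edgeR adjusted p = 0.0253), 4.68 within set 3. Of 35 tested inflammatory and secretory genes Il6 alone was called, 24 values were positive and the median was 1.28. The summed level of that list did not follow the median, at 4708 to 6288 CPM in old and 5507 to 12373 CPM in young knockout cells, with overlap. Ccl2, a monocyte chemoattractant, was at 84.9, 152 and 48.3 CPM against 15.5, 14.9 and 25.9 CPM (adjusted p = 0.0688), and Tnf at 7.58, 15.8 and 6.52 CPM against 0.372, 0.212 and 1.34 CPM (adjusted p = 0.0743).

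The Il6 promoter is printed because it carries a cyclic AMP response element core, TGACGT, the element through which CREB and ATF factors induce immediate early genes. It spans chr5:30012864-30013113 on the plus strand of GRCm38.p6 in RefSeq, and the capitals mark the core, read on the reverse strand from base 136 to base 131 before the start.
Il6: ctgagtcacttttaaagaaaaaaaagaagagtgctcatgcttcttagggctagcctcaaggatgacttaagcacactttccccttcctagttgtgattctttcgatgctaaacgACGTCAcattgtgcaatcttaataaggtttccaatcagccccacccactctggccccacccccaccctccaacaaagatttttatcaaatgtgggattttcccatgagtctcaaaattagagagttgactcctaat
TGACGT, searched on both strands, was present in 7 of 21 immediate early genes with a promoter in the table (Fos, Egr2, Egr4, Atf3, Nr4a3, Dusp1 and Btg2), but in neither Nr4a1 nor Nr4a2 within this window. It was found in 1389 of the 12918 tested genes with a promoter (10.8%) and in 6.47% of all promoters. The 2 motifs do not overlap in any of the 3 printed promoters.

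Antioxidant enzymes added 2 calls. Sod1, the cytosolic superoxide dismutase, was at 344, 208 and 257 CPM in old against 85.4, 92 and 113 CPM in young cells, with a log2 fold change of 1.47 ± 0.29 (SE; edgeR adjusted p = 0.0389). Gstm1, a glutathione transferase, was at 48.3, 45.2 and 56.1 CPM against 33.9, 32.7 and 26.9 CPM (log2 fold change 0.68 ± 0.15, adjusted p = 0.0477). Both rose with no overlap, and of 26 tested members none fell, 19 were positive and the median was 0.67. Hmox1, heme oxygenase, showed a larger difference that missed the threshold, at 945, 818 and 821 CPM against 103, 124 and 118 CPM (adjusted p = 0.0628). Its level in the young control line was 90.8, 99.5 and 1330 CPM, the set 3 library being above all old knockout libraries.

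Signalling pathways contributed single genes. Nog (noggin), a secreted antagonist of BMPs, was at 15.2, 13.7 and 34.1 CPM in old and 2.01, 2.56 and 1.33 CPM in young cells and rose by 3.41 ± 0.64 on the log2 scale (SE; edgeR adjusted p = 0.036). It was the 1 call among 34 genes of the BMP pathway, whose median was 0.09. Bmp6, a BMP ligand, was at 1.03, 3.35 and 1.13 CPM against 31.6, 33.3 and 11.3 CPM without passing (adjusted p = 0.0587). Tgfb2, the second TGF-beta ligand, was at 28.2, 39.2 and 30.5 CPM in old against 280, 278 and 164 CPM in young cells, a fall by 2.88 on the log2 scale (adjusted p = 0.0477). It was the 1 call among 28 TGF-beta genes, of which 19 were negative (median -0.29). Tgfb3 had the same shape, at 74.7, 98.6 and 108 CPM against 472, 405 and 411 CPM (adjusted p = 0.0697). CON-YOUNG 1, 2 and 3 held 290, 287 and 43.5 CPM of Tgfb2, again with the set 3 library near the old knockout.

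Fgf1, a growth factor that lacks a signal peptide, rose from 0.159 to 0.263 CPM in young libraries to 1.07, 1.72 and 2.7 CPM in old ones (log2 fold change 3.01, edgeR adjusted p = 0.0392). It was the only call of 34 FGF and Hedgehog genes, of which 24 were positive (median 0.84). Etv1, a transcription factor induced by FGF signalling, was just above the threshold, at 12.8, 20.7 and 17.2 CPM against 4.57, 3.87 and 4.49 CPM (adjusted p = 0.0507). None of 19 Notch pathway genes was called, with 13 negative and a median of -0.71. Hey2, a Notch target, was near 0 in all 3 old libraries and at 2.42, 3.32 and 0.263 CPM in young ones.

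Wnt signalling, which drives osteoblast formation through beta-catenin, gave 1 call in 67 tested ligands, receptors, antagonists and target genes. Ryk, a Wnt-binding receptor tyrosine kinase homologue, was at 177, 177 and 185 CPM in old and 282, 291 and 277 CPM in young cells. The libraries of each age were nearly equal, and the small fall (log2 fold change -0.66 ± 0.13 SE, edgeR adjusted p = 0.0392) was -0.62 within set 3. Of the 22 receptors 15 were negative and 10 were lower in each old library than in any young one (15.2% of all genes), among them Fzd7 at 46.4, 63.7 and 67.5 CPM against 134, 155 and 80.4 CPM (adjusted p = 0.0842). None of 23 target genes was called. Ccnd1 (cyclin D1) was at 979, 732 and 900 CPM against 178, 200 and 280 CPM (adjusted p = 0.0587), and Axin2, the feedback inhibitor often used as a readout, at 5.05, 6.39 and 8.09 CPM against 1.79, 4.59 and 10.1 CPM. Axin2 overlapped between the ages, and its log2 fold change of 0.24 turned to -0.64 within set 3. Lef1, a transcription factor of the pathway, was at 1.09, 0.823 and 2.02 CPM in old and 8.23, 10 and 1.59 CPM in young cells, also with overlap (adjusted p = 0.154).

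Of 10 secreted Wnt antagonists none was called, and 3 were above and 1 below without overlap, near the 31.5% of all genes that did not overlap. Wif1, which binds Wnt ligands, was at 62.8, 33.2 and 91.8 CPM against 20.4, 12.7 and 15.7 CPM (edgeR adjusted p = 0.115), and Notum, which removes the lipid of Wnt proteins, at 67.9, 52.9 and 70.6 CPM against 4.01, 3.2 and 12.3 CPM (adjusted p = 0.149). Of the ligands, Wnt16 was at 3.2, 8.11 and 0.857 CPM in old cells and at 0, 0 and 0.481 CPM in young ones (adjusted p = 0.0963). Each of these was higher in every old library than in any young one.

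Polycomb subunits were read next. Kdm2b itself was at 23.4, 57.2 and 28.4 CPM in CKO-OLD and 51.5, 58.2 and 27.6 CPM in CKO-YOUNG (log2 fold change -0.33 ± 0.41 SE, edgeR adjusted p = 0.649). The groups overlapped, and the sign turned to 0.40 within set 3 and 0.51 with a term for library set. One count per gene cannot show whether the CxxC domain is gone. None of 10 PRC1.1 subunits, 20 other PRC1 subunits or 12 PRC2 subunits was called, which with 0.700% of all genes called says little about these lists. Without CKO-YOUNG 3, 1, 5 and 3 of them were called lower (8.00% of all genes), and 1 PRC2 subunit higher (7.66%). Of the 20 other PRC1 subunits 7 were lower without overlap (15.2% of all genes) and 3 higher (16.3%). Pcgf1, the RING-finger partner particular to PRC1.1, was at 11.7, 8.58 and 8.9 CPM against 4.94, 4.56 and 6.05 CPM (adjusted p = 0.105), and Cbx2, a chromodomain subunit of canonical PRC1, at 2.43, 3.99 and 3.48 CPM against 14, 15.9 and 11.7 CPM (adjusted p = 0.0591). Rbbp7, a histone-binding subunit of PRC2, was at 134, 126 and 135 CPM against 240, 244 and 167 CPM (adjusted p = 0.051).

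Among genes known to be covered by Polycomb, Tbx4 and Hoxa3 were called, in opposite directions. Tbx4, a transcription factor of hindlimb identity, was at 6.05, 4.64 and 7.07 CPM in old and 0.727, 1.55 and 0.467 CPM in young cells and rose (log2 fold change 2.69 ± 0.51 SE, edgeR adjusted p = 0.036). It was the 1 call among 68 tested developmental transcription factors, of which 37 were positive (median 0.24). In each old library 23 of them were higher than in any young one (16.3% of all genes) and 10 were lower (15.2%). Their median was 0.98 without CKO-YOUNG 3, 0.20 within set 3 and -0.01 with a term for library set. Hoxa3, a patterning gene of anterior body segments, was at 2.37, 3.31 and 3.41 CPM against 10.7, 14.7 and 11 CPM and fell by 2.00 on the log2 scale (adjusted p = 0.0473). Of 35 Hox genes 23 were negative. Without overlap 13 were lower in each old library (15.2% of all genes) and 6 were higher (16.3%, so near that share). The lower ones included Hoxa5 at 7.76, 6.29 and 7.95 CPM against 15.1, 14.5 and 15.6 CPM (adjusted p = 0.0584). Sox9, the cartilage regulator, was at 44.5, 36 and 118 CPM against 5.33, 4.43 and 9.18 CPM (adjusted p = 0.0796).

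Cdkn2a, which encodes the senescence-linked p16 and p19ARF and is a classical Polycomb target, was at 144, 77.5 and 97.9 CPM in old cells. Young libraries did not form a common level, with 5.31, 4.96 and 84.2 CPM in CKO-YOUNG 1, 2 and 3 and 7.92, 8.18 and 147 CPM in CON-YOUNG 1, 2 and 3. The groups of the knockout overlapped (log2 fold change 1.76, edgeR adjusted p = 0.327), and the young set 3 libraries of both lines were in or above the range of the old knockout. Proliferation genes had a similar split. Of 43 cell cycle genes none was called, 42 were negative and the median was -0.83. It was -1.17 without CKO-YOUNG 3 (17 called lower, against 8.00% of all genes) but 0.68 within set 3. Mki67, the proliferation antigen, was at 79.3, 130 and 99.7 CPM in old and 239, 247 and 29.5 CPM in young knockout cells, so the direction depended on which young library was used.

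The interferon response depended on the same library. Its 39 tested genes had 32 negative values and a median of -0.92 with none called. The median was 1.30 without CKO-YOUNG 3 (11 called higher, against 7.66% of all genes) and -2.10 within set 3. Isg15, a ubiquitin-like protein induced by interferon, was at 23.9, 45.1 and 14.5 CPM in old and 7.3, 3.46 and 283 CPM in young libraries. The value of CKO-YOUNG 3 alone was above all others. H19, an imprinted long RNA, was likewise at 1.71, 3.91 and 8.77 CPM in old and 7.68, 5.55 and 607 CPM in young libraries. None of 25 imprinted growth genes was called.

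No collagen passed the test. Of 41 tested 21 were positive, with a median log2 fold change of 0.25. In each old library 14 were lower than in any young one (15.2% of all genes) and 2 were higher (16.3%). The median was 1.51 without CKO-YOUNG 3, with 5 called higher (7.66% of all genes) and 2 lower (8.00%), and -0.42 within set 3. Col5a2, a fibril-organising chain, was at 1911, 1977 and 1930 CPM in old against 3951, 3730 and 4253 CPM in young cells (edgeR adjusted p = 0.052). Serpinh1, the collagen chaperone HSP47, was at 1221, 1084 and 989 CPM against 3566, 3362 and 2131 CPM (adjusted p = 0.051). Summed over the list, collagens were at 28529 to 38164 CPM in old and 59713 to 73878 CPM in young knockout cells, and at 93906, 83498 and 44766 CPM in CON-YOUNG 1, 2 and 3. Tmem38b, an ion channel of the endoplasmic reticulum whose loss impairs collagen folding, was the 1 call of 34 collagen processing genes, at 47.6, 61 and 46.1 CPM against 27.9, 23.1 and 25.7 CPM (log2 fold change 1.01 ± 0.20 SE, adjusted p = 0.0389). Adamts5, an aggrecan-cleaving protease, rose from 71, 64.6 and 110 CPM to 202, 174 and 230 CPM (log2 fold change 1.30, adjusted p = 0.0477). Mmp13, the collagenase of bone, was at 443, 1001 and 644 CPM against 95.6, 52.2 and 225 CPM (adjusted p = 0.0626).

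None of the 12 lists of markers of other cell types had a called member. In bulk RNA, more cells of a type and more RNA per cell cannot be told apart. Of 28 macrophage and monocyte markers 27 were positive (median 2.48), and their summed level was 1551 to 6577 CPM in old and 178 to 1112 CPM in young knockout cells. For 19 of the markers every old library lay above every young one (16.3% of all genes), and for none below. Without CKO-YOUNG 3, 20 were called higher (7.66% of all genes) and none lower. The median was 1.47 within set 3. With a term for library set it was 1.87 and none was called (0.0362% of all genes). Csf1r, the receptor for the macrophage growth factor CSF1, was at 95.2, 389 and 107 CPM against 14.5, 10.7 and 32.1 CPM (edgeR adjusted p = 0.0626). CKO-OLD 2 was the highest library. Wild-type libraries held 1574 to 18010 CPM of these markers. Acp5 and Tnfrsf11a, markers of osteoclasts, had 95.1 and 25.1 CPM in CKO-OLD 2 and at most 6.56 CPM in the other 5 libraries.

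Of 17 contractile genes of pericytes and smooth muscle 16 had negative values (median -2.36), with a summed level of 2674 to 3388 CPM in old and 9293 to 10703 CPM in young cells. Actg2, an actin of smooth muscle, was at 9.17, 31.8 and 26.8 CPM against 467, 490 and 721 CPM (edgeR adjusted p = 0.0626), and Cnn1 (calponin) at 17.6, 22.8 and 16.6 CPM against 157, 205 and 399 CPM (adjusted p = 0.0648). CKO-YOUNG 3, at 9293 CPM summed, was close to the other young libraries, and the median within set 3 was -1.79. CON-YOUNG 3, at 3728 CPM summed, was nearer to the old knockout than to CON-YOUNG 1 and 2 (9195 and 10599 CPM).

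Chondrocyte markers were positive in 18 of 19 cases (median 3.99), and the summed level of 11728 CPM in CKO-OLD 3 stood far above 2185 and 2208 CPM in CKO-OLD 1 and 2 and 526 to 1443 CPM in young cells. Prg4 (lubricin) was at 918, 1783 and 1201 CPM in old against 16, 16.5 and 16.2 CPM in young cells (edgeR adjusted p = 0.0656). Col2a1, the cartilage collagen, was at 499, 87.4 and 8015 CPM against 1404, 1327 and 421 CPM, with overlap. Of 18 fibroblast and tendon progenitor genes 11 were positive and 7 negative. Without overlap 5 were higher (16.3% of all genes) and 3 lower (15.2%). The list's median of 0.86 was 0.03 within set 3 and 0.07 with a term for library set. The member S100a4 was at 3162, 969 and 1608 CPM against 23.1, 18 and 85.4 CPM (adjusted p = 0.0587). The part of these other cell types in the called genes was not tested.

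**Figure D4:**
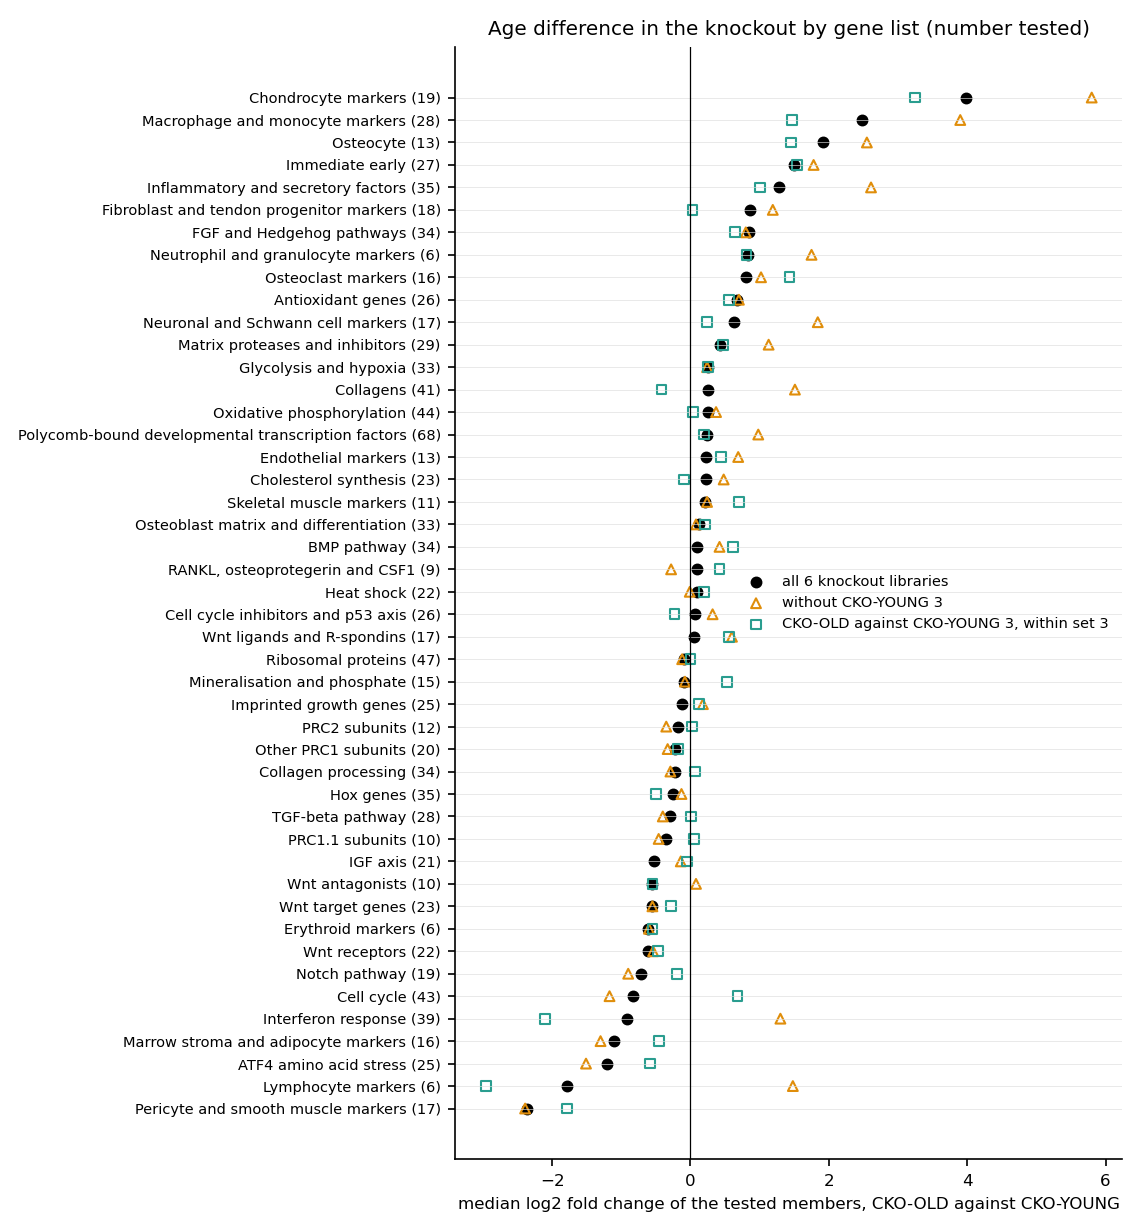
Median log2 fold change of CKO-OLD over CKO-YOUNG for the 46 gene lists (number of tested members in brackets) with all 6 libraries (black), without CKO-YOUNG 3 (orange) and within set 3 (green). Immediate early genes (1.50, 1.78 and 1.54) and contractile genes (-2.36, -2.39 and -1.79) keep their sign, while cell cycle genes (-0.83, -1.17 and 0.68) and interferon genes (-0.92, 1.30 and -2.10) change sign.

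The remaining called genes, 93 of the 116, were in no list, and those named in this paragraph and the next were chosen after their values were seen. Several of the higher ones are known from lysosomes or from myeloid cells. Gpnmb, a membrane glycoprotein of osteoblasts and macrophages, was at 453, 697 and 586 CPM in old and 53.3, 43.9 and 58.1 CPM in young cells (log2 fold change 3.48 ± 0.62 SE, edgeR adjusted p = 0.0318). Mitf, a transcription factor of lysosomal and osteoclast genes, was at 18.9, 21.4 and 13.7 CPM against 5.16, 3.89 and 6.29 CPM. The lysosomal hydrolases Gla and Hexa were at 44.4 to 48.6 CPM against 14.2 to 22.9 CPM and at 267 to 334 CPM against 111 to 175 CPM. Tlr4, the receptor for bacterial lipopolysaccharide, was at 36.7, 51 and 71.7 CPM against 25.2, 21.5 and 23.1 CPM, and Nfkbiz, an inducible regulator of NF-kappaB, at 148, 147 and 163 CPM against 28.3, 23.2 and 42 CPM. Cebpd, a transcription factor of the acute phase, rose from 24.1 to 36.9 CPM to 105 to 140 CPM (log2 fold change 2.03, adjusted p = 0.0253).

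On the lower side, RNA-binding and splicing proteins were Hnrnpa1 (164, 171 and 161 CPM in old, 460, 500 and 286 CPM in young cells), Hnrnph1 (172, 160 and 158 CPM against 314, 321 and 285 CPM), Ptbp2, Tia1, Rbmx, Nudt21 and Fubp1. Their log2 fold changes ran from -0.80 for Nudt21 to -1.57 for Fubp1, with edgeR adjusted p from 0.0253 to 0.0477. Adhesion and cytoskeletal genes were Itga5, the fibronectin receptor subunit (213, 308 and 304 CPM against 1059, 1364 and 693 CPM), Pdlim7, Tgfb1i1 (HIC-5, a focal adhesion adaptor), Septin11 and Gjc1 (connexin 45). Tcfl5, a transcription factor of the basic helix-loop-helix family, was at 16.6, 11.9 and 11.9 CPM against 46.8, 50.7 and 51.2 CPM (log2 fold change -1.88, adjusted p = 0.0419). CKO-YOUNG 3 was level with the other young libraries for Tcfl5.

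The wild type was used to ask whether these genes also differed with age without the deletion. In OLD against YOUNG none of the 16566 genes was called (0%; 554 at an unadjusted p under 0.05, 41 called by DESeq2, none by limma-voom). The wild-type libraries are mixed too: YOUNG 1 and 2 and OLD 1 and 3 were low in Malat1 with 391 to 481 CPM of Xist and no Ddx3y, whereas YOUNG 3 and OLD 2 were in set 3 with Ddx3y and at most 0.251 CPM of Xist. Of the 116 genes 79 had the same sign in the wild type and 15 an unadjusted p under 0.05 there. Smpd3 and Tcfl5 had nearly equal changes in both lines: Smpd3 was at 6.33, 2.46 and 5.69 CPM in OLD and 27.3, 26.6 and 25 CPM in YOUNG (log2 fold change -2.44, against -2.60 in the knockout), and Tcfl5 at 0.971, 1.15 and 1.37 CPM against 4.4, 3.13 and 4.69 CPM (-1.80, against -1.88). Neither was called in the wild type (edgeR adjusted p = 0.74 for both), though the libraries of the 2 ages did not overlap.

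The difference between the age effects was tested as an interaction. None of the 16566 genes passed (0%; smallest edgeR adjusted p 0.246, 1993 at an unadjusted p under 0.05, 274 called by DESeq2 and none by limma-voom). Other edgeR fits called 61 genes with only the groups compared, 159 within set 3, 65 without CKO-YOUNG 3 and 1 with a term for library set. The log2 fold change of Bglap was 8.53 in the knockout and negative in the wild type (difference 9.52 ± 1.97 SE, adjusted p = 0.246). For Spp1 the 2 log2 fold changes were 2.57 and 0.40 (adjusted p of the difference 0.31), and wild-type levels were 15782, 13640 and 15652 CPM in OLD and 8164, 7001 and 18921 CPM in YOUNG. YOUNG 3 was the highest of these and the groups overlapped. Trib3, Chac1 and Cth were negative in both lines, at -1.22, -1.03 and -0.98 in the wild type. The immediate early list had a median of -0.29 in the wild type, with 7 of 27 positive, against 1.50 in the knockout, and the ATF4 list -0.49 with 1 of 25 positive, against -1.20.

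**Figure D5:**
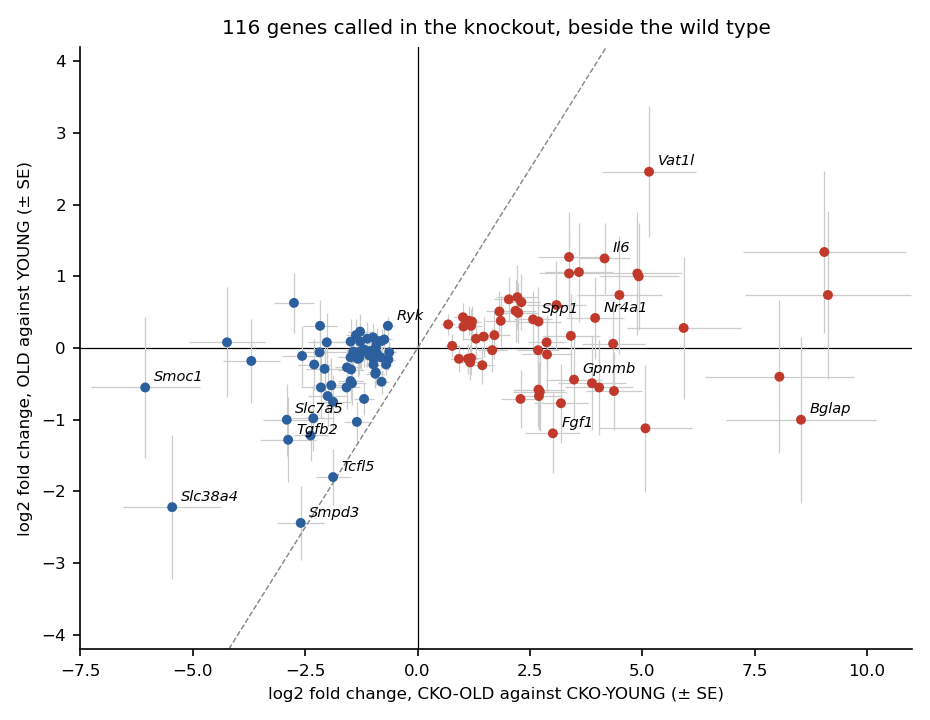
Log2 fold change with age of the 116 called genes in the knockout (horizontal) and the wild type (vertical), each with its SE, higher genes in red and lower genes in blue; the dashed line marks equal changes. Smpd3 (-2.60 and -2.44) and Tcfl5 (-1.88 and -1.80) lie on the line, and most others, such as Spp1 (2.57 and 0.40), lie near or across the horizontal axis.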

How the data were processed

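Read counts per gene symbol, as deposited by the authors, were used for 18 RNA libraries; they are whole numbers with no normalization. The submitters' processing notes name FastQC, Trim Galore, HISAT2 and mm39. How reads were counted, on which annotation and with or without strand, is not given in the sources used here, so overlapping, antisense and near-identical genes cannot be told apart by their counts. The 8 CUT&Tag samples were not analysed here.

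Groups came from the titles. CON-YOUNG and CON-OLD-iBP were in the fit too, so they share in the filter, the scaling and the estimate of spread. Genes were filtered with edgeR 4.0.16 (filterByExpr, minimum count 10, minimum total 15), which kept 16566 of 26264, scaled by TMM and tested with the quasi-likelihood F test (robust, 1 coefficient per group over 18 libraries, 12 residual degrees of freedom), two-sided, with Benjamini-Hochberg adjustment over all tested genes and a threshold of 0.05. Every adjusted p in the text is from this test. The procedure was tested on simulated data. CPM use TMM library sizes, and 1 count is 0.0146 to 0.0201 CPM in the 6 knockout libraries. Alternatives were DESeq2 1.42.0, limma 3.58.1 (voom), other filters and size factors, a term for library set, a replicate block and leaving out each library, run in R 4.3.3.

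The 46 gene lists, the members and the naming rule were chosen with earlier results of these data known. The rule takes Kdm2b, Bglap, Axin2, Lef1 and Cdkn2a; the 12 largest increases and decreases among called genes whose higher group averaged 5 CPM or more, with groups that do not overlap and the same direction without CKO-YOUNG 3; the 3 members of smallest p of each list with a called gene and up to 2 of other lists; and the 5 smallest p of the difference from the wild type. Predicted, Y-linked and Xist genes were not eligible as largest changes, and 1 of the largest decreases is not reported here. Other genes were named after their values were seen, such as Fos, Egr1, Dusp1, Hmox1, Mki67, Isg15, Col1a1, Runx2, Sp7, Atf4, Ddit3 and Col2a1. Promoters are RefSeq's on GRCm38.p6, another build than the authors', and were matched by symbol for 12918 tested genes.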

Additional observations from a re-analysis of the deposited data

Results flagged for a closer look

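In 11 of the 125 genes taken by the naming rule every old knockout library lay on one side of all young knockout libraries while every old wild-type library lay on the opposite side of the young ones. Over all 16566 tested genes the same held for 161 (0.972%). Among genes apart in both lines it held for 11 of 36 named and 161 of 659 tested genes. The rule chose in part by non-overlap in the knockout and by a small p of the difference, so these shares are not comparable. The difference of the 2 age changes was tested by edgeR as an interaction and passed for none of the 11 (adjusted p 0.246 to 0.329, unadjusted p 8.44e-05 to 0.00999). Wild-type library set and sex-linked transcripts differ within these groups as given above, and their part was not tested.

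Higher with age in the knockout and lower in the wild type were Bglap (difference in log2 fold change 9.52), Wif1 (4.58), Fgf1 (4.19), the collagenase gene Mmp13 (3.55), Phospho1 (2.76) and Als2cl (2.35). Als2cl, a relative of the alsin exchange factor, was at 88.9, 58.7 and 53.3 CPM in CKO-OLD and 34.2, 25 and 33.6 CPM in CKO-YOUNG, against 25.9, 13.9 and 23.7 CPM in OLD and 41.4, 38.2 and 69.6 CPM in YOUNG. The remaining genes were lower with age in the knockout and higher in the wild type: Wdfy1 (-2.91), the transcription factor gene Ebf1 (-1.58), Trp53 (-1.01), Ryk (-0.97) and Rbbp7 (-0.85). Wdfy1, an endosomal adaptor, was at 47.5, 39.2 and 35.2 CPM in CKO-OLD and 130, 125 and 76.3 CPM in CKO-YOUNG, against 50.5, 38.4 and 49.6 CPM in OLD and 18.8, 15.8 and 15.4 CPM in YOUNG. Neither Als2cl nor Wdfy1 was called within the knockout (adjusted p = 0.0718 and 0.0696).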

How the results depend on the processing

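The count of genes called between old and young knockout cells was 116 (56 higher, 60 lower). It was 190 (89 and 101) with a mean of at least 1 CPM, 736 (409 and 327) with only the knockout libraries in the fit, 253 (125 and 128) with limma-voom, 1999 (1099 and 900) with DESeq2, 892 (448 and 444) within set 3 (a young arm of 1 library, assumed to vary like the other groups) and 6 (5 and 1) with a term for library set. Other size factors (108) and no filter on low counts (88) changed it by less than 1.5 times. Leaving out 1 library gave 0 to 2655 (0 to 1299 higher, 0 to 1356 lower): 2655 without CKO-YOUNG 3 and 0 without any other, the smallest adjusted p then being 0.0611 to 0.134. DESeq2 called all 116, limma-voom 101 and the fit of the knockout libraries alone 97. Same-numbered old and young libraries did not deviate together (correlations -0.0418, -0.0495 and -0.107), and a replicate block in the fit of the knockout libraries alone called 230 genes (161 higher, 69 lower), 35 of them among the 116.

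In the wild type 0 genes were called, with 41 (13 higher, 28 lower) by DESeq2, 9 (3 and 6) within set 3 and 0 to 2 (0 to 1 each way) on leaving out a library, the 2 without YOUNG 3. For the difference of the age changes 0 were called, with 61 (38 and 23) from only the groups compared, 1 (higher) with a term for library set, 159 (118 and 41) within set 3, 274 (207 and 67) by DESeq2 and 0 to 65 (0 to 40 higher, 0 to 25 lower) on leaving out a library, the 65 without CKO-YOUNG 3. The replicate block called 0 in both. The causes were not tested.

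Signs turned for genes that were not called. With a term for library set the log2 fold change was 0.51 for Kdm2b, -0.61 for Axin2, 0.38 for Mybl2 and 4.68 for Kit, which was near 0 in 4 of the knockout libraries. Within set 3 it was 0.40 for Kdm2b, -0.64 for Axin2, 1.03 for Mybl2, 0.29 for Mcm7, 0.11 for Rps2, 4.58 for Kit, 0.19 for Tfrc and 0.16 for Pparg. Axin2 was -0.17 without CKO-YOUNG 1. Of 46 list medians 11 changed sign with a set term, 11 within set 3 and 6 without CKO-YOUNG 3. With a set term they included cell cycle (0.35), mineralisation (0.24), PRC1.1 (0.10), Wnt targets (0.10), the IGF axis (0.03), collagen processing (0.01), collagens (-0.12) and cell cycle inhibitors (-0.22). Within set 3 they included cell cycle (0.68), mineralisation (0.53), imprinted genes (0.12), collagen processing (0.06), PRC1.1 (0.05), PRC2 (0.02), TGF-beta (0.01), cholesterol synthesis (-0.09), cell cycle inhibitors (-0.23) and collagens (-0.42). At 1 count to 0.0146 to 0.0201 CPM, depth limits only genes near 0, such as Bglap in young cells.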

Other observations

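Metabolic lists had few members past the test. Of 33 genes of glycolysis and hypoxia none was called and 23 were positive (median log2 fold change 0.26), with the pyruvate kinase gene Pkm at 5378, 4733 and 5398 CPM in old and 2718, 2934 and 2265 CPM in young knockout cells (edgeR adjusted p = 0.0708). Pfkfb4, which sets the level of an activator of glycolysis, was at 43.3, 46.9 and 35.3 CPM against 17.1, 17.7 and 18.5 CPM (adjusted p = 0.0743). Both pairs of groups were apart. Nuclear genes of oxidative phosphorylation (31 of 44 positive, median 0.25), ribosomal proteins (29 of 47 negative, median -0.09) and cholesterol synthesis (18 of 23 positive, median 0.22) had no called member.

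Among 17 neuronal and Schwann cell genes 12 were positive (median 0.63) and none was called. Uchl1, a neuronal deubiquitinase, was at 49.7, 35.5 and 34.2 CPM in old and 8.76, 13.4 and 11.2 CPM in young knockout cells (edgeR adjusted p = 0.0587). Its change of 1.84 on the log2 scale was 1.83 within set 3. Igfbp6, an IGF-binding protein, was at 403, 141 and 123 CPM in old and 1.05, 1.94 and 6.86 CPM in young cells (adjusted p = 0.0769). Grb10, an imprinted brake on insulin signalling, was at 76.3, 120 and 95.1 CPM against 496, 441 and 332 CPM (adjusted p = 0.052). Uchl1, Igfbp6 and Grb10 had no overlap between the ages.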
